A study of Homo sapiens with 8 samples.

Results

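HuR-expressing FT293 cells were compared with the GFP-, TIA1- and TIAR-expressing lines of the same parent cell, as 2 arrays against 6 arrays of 8 in all. FT293 cells are human embryonic kidney HEK293 cells with a single docking site for a transgene that tetracycline switches on. The groups were the construct GFP-HuR (2 arrays), GFP alone (2 arrays), GFP-TIA1 (2 arrays) and GFP-TIAR (2 arrays). RNA was taken on day 3 of tetracycline treatment, which every group received, so every line carries a GFP transgene. Each construct was represented by 1 line, and a difference between lines cannot be told apart from a difference between constructs. Nothing in the sources used here says that the 2 arrays of a line came from separate cultures, so p-values measure the spread between these arrays, which may be technical. A gene was outside the range when both HuR arrays lay above, or both below, each of the 6 other arrays, and this held for 3017 genes higher (14.3% of 21165 gene names tested) and 3842 genes lower (18.2%). The excess of lower over higher turned around under other scalings, with 3785 higher and 2496 lower after quantile normalization and 3299 and 2529 in the authors' normalized values.

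HuR, the product of ELAVL1, is an RNA-binding protein of the embryonic lethal abnormal vision family. It binds AU-rich and U-rich stretches, mostly in the untranslated ends of mRNAs, and is best known for slowing the decay of short-lived messages for cyclins, cytokines and growth factors. TIA1 and TIAR bind similar stretches and are known as regulators of splicing and as brakes on translation. In bulk RNA, fewer cells of a kind and less RNA per cell cannot be told apart.

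Signals are given as log2 values relative to the 75th percentile of the array, and a difference is the mean of the HuR arrays less the mean of the other 6. A gene was called when a probe was outside the range, differed at least 2-fold and had an adjusted p under 0.05 with limma. By this rule 62 genes were higher (0.293%) and 288 were lower (1.36%) in HuR-expressing cells, and 0 genes had probes called in both directions. The largest differences were losses. The matrix protein gene MFAP2, the actin-bundling protein gene LCP1 and the antisense RNA GNAS-AS1 were at least 121-fold, 208-fold and at least 58.6-fold lower, while the widest gaps among the gains were those of OR51E2, at least 2.98-fold, and PTPRZ1, 8.35-fold. Of the called probes, 10 of 65 higher and 61 of 307 lower had passed the filter on dim signals only through the brighter side, which had to differ. The counts depend on the arrays used. Leaving out 1 array gave between 13 and 225 genes higher and between 18 and 758 lower, and each of the 8 arrays moved both counts by over 1.5 times. Without HuR replicate 1, 13 genes were called higher, of which 3 were among the 62, and 23 lower, all among the 288. Without HuR replicate 2 these were 18 with 1 shared, and 18 with all shared. With quantile normalization the counts were 19 and 43, and calls in the higher direction made up 30.6% instead of 17.7%. That setting also moved the median difference of all tested probes from -0.06 to 0.11, and normexp correction moved it to -0.13. Differences near 0 therefore have no fixed direction. Of the 55 called genes under the naming rule, 20 kept their call with quantile normalization, 13 without HuR replicate 1 and 11 without HuR replicate 2. The 10 that kept it in each of these settings were OR51E2, MFAP2, GNAS-AS1, LCP1, ZNF22, GUCY1B2, DECR1, C2CD2, MYD88 and C20orf201, and no other of the 55 did. OR51E2 had passed the filter on dim signals only through the HuR arrays. MFAP2, GNAS-AS1, ZNF22, GUCY1B2, DECR1 and C2CD2 had passed it only through the others. All 10 were named for their wide gaps on these same arrays, so keeping the call is no independent support.

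**Figure D1:**
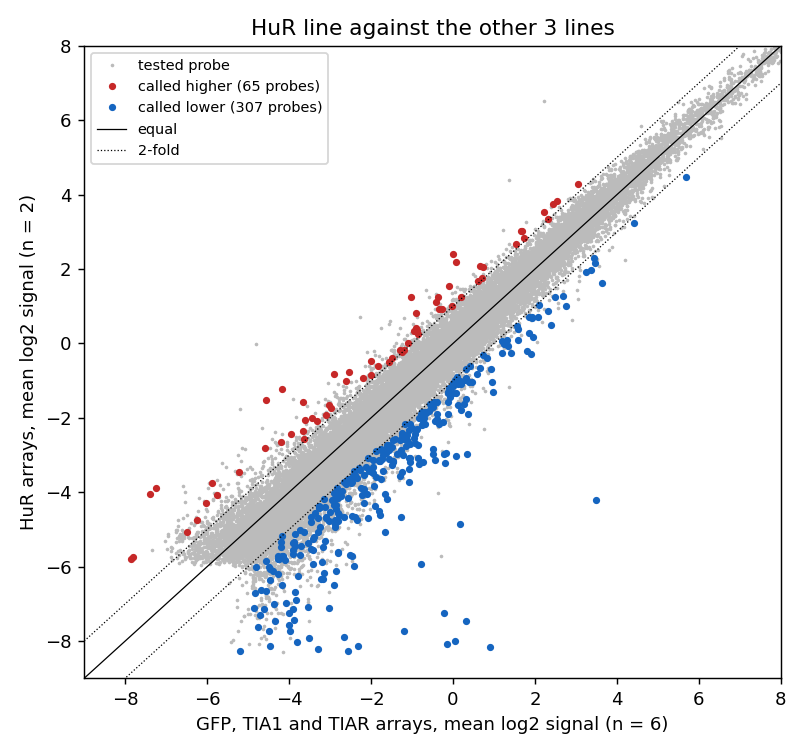
Mean log2 signal of the 2 HuR arrays (vertical axis) against that of the 6 other arrays (horizontal axis), with 1 point for each of 28622 tested probes. Red points are the 65 probes called higher and blue points the 307 called lower. The lowest blue points are probes at background on the HuR arrays, whose distance from the line of equal signal is set by that floor.

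Against the other lines taken one by one, with the HuR arrays shared by the 3 comparisons, HuR-expressing cells had 367 genes higher (1.73%) and 603 lower (2.85%) than GFP-expressing cells. The counts were 899 (4.25%) and 1438 (6.79%) against TIA1, and 552 (2.61%) and 1039 (4.91%) against TIAR. Of the 62 genes called higher against all arrays, 42 were also called against each of the 3 lines, as were 218 of the 288 called lower. The HuR arrays were close to each other, with 0.713% of tested probes over 2-fold apart. This share was 2.59% for TIA1, 3.01% for TIAR and 20% for GFP. GFP replicate 1 stood apart, with 86.0% of probes well above background where the other arrays had 53.2% to 58.5%, and a mean local background of 83.2 where they had 35.7 to 41.5. Without it the counts were 225 genes higher and 669 lower. Taking each line in turn against the rest by the same rule gave 136 genes higher and 167 lower for GFP, 10 and 21 for TIA1, and 11 and 5 for TIAR. Outside the range were 2662 and 2877 genes for GFP, 3235 and 2378 for TIA1 and 1750 and 1459 for TIAR, so TIA1 had more in the higher direction than HuR.

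The array did not show the transgene of HuR. The ELAVL1 probe (NM_001419, chromosome 19 from 8028279 to 8028338, hg19) had log2 signals of 0.33 and 0.42 on the HuR arrays, 1.09 and 0.91 with GFP, -0.28 and 0.46 with TIA1, and 0.23 and 0.82 with TIAR. The HuR arrays lay within the range of the others, and the difference was -0.16 (standard error 0.35, adjusted p = 0.838, limma). Where this probe lies relative to the cloned reading frame is not given in the sources used here, so it does not check the label. One TIAL1 probe (chromosome 10 from 121336676 to 121336982) had signals of 4.87 and 4.98 on the TIAR arrays and 1.63 to 2.52 on the other 6, HuR included, so it marked the TIAR line. The other TIAL1 probe was not brightest on the TIAR arrays, and neither TIA1 probe on the TIA1 arrays. The 2 TIA1 probes differed by 0.83 and 0.34 between HuR and the other arrays, with adjusted p-values of 0.406 and 0.526. Against single lines, the first differed by -0.05 from GFP, 0.98 from TIA1 (adjusted p = 0.0178) and 1.58 from TIAR (adjusted p = 0.00775). The second differed by -0.05 from GFP, 0.52 from TIA1 (adjusted p = 0.138) and 0.55 from TIAR (adjusted p = 0.145). Of 11 genes on the HEK293 identity list, 10 were well above background on both HuR arrays, among them KRT18 and VIM. The exception was PAX8, well above background on 1 of the 2 HuR arrays and 1 of the 6 others. Within this list NEFL was called higher and LHX1 lower. Of 8 fibroblast markers, 4 (PDGFRA, COL1A1, LUM and DCN) were well above background on both HuR arrays, while COL3A1, FAP and PDGFRB were not well above background on any of the 8 arrays. The same held for the endothelial markers CLDN5 and TEK. In whole, 4 of 8 blood markers, 2 of 8 fibroblast, 2 of 6 endothelial and 2 of 6 liver markers were well above background on all 8 arrays.

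Among 39 tested AU-rich mRNAs known as HuR targets, 11 were outside the range in each direction (28.2%, beside 14.3% higher and 18.2% lower among all tested genes). Of these, 3 were called higher and 1 lower, beside 0.293% and 1.36%. CCND1, cyclin D1, which drives entry into S phase, had signals of 0.75 and 0.91 on the HuR arrays and between -1.08 and -0.77 on the other 6. The 6 others spanned little and the HuR arrays lay well above them. The difference was 1.73 (standard error 0.15, adjusted p = 0.00238), 3.31-fold, and it was 1.72 against GFP, 1.83 against TIA1 and 1.64 against TIAR. Its relative CCND2, cyclin D2, which is not on the list and was named after its values were seen, differed by 1.31 (adjusted p = 0.0165). PTGS2, the inducible cyclooxygenase, was well above background on the HuR arrays (-3.98 and -4.19) and on 0 of the 6 others (-5.95 to -5.54), and was at least 2.7-fold higher (adjusted p = 0.00438), so it passed the filter only through the HuR arrays. EIF4E, the cap-binding translation factor, was called by 1 of its 3 probes. That probe had 1.15 and 1.36 on the HuR arrays and -0.69 to -0.07 on the others, a difference of 1.62 (adjusted p = 0.0145), while the other probes differed by 0.27 and 0.15 and were within the range. MMP9, a gelatinase encoded on chromosome 20, was lower, at -2.87 and -2.88 against -1.83 to -1.59. The list as a whole had a median difference of 0.03 beside -0.06 over all tested genes, an excess of 0.09 that turned to -0.05 under another scaling, and most of its members, MYC, VEGFA and HIF1A among them, did not pass the test. MYC had a difference of 1.07 with an adjusted p of 0.154. In the other direction, CCL2 had the lowest difference of the list, -3.64. Both HuR arrays lay below the other 6 for it, but its adjusted p was 0.0991.

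The pentamer ATTTA is the core letter pattern of AU-rich elements. Searched on the probe's own strand, it stood in 13 of the 65 probes called higher (20%), 21 of 307 called lower (6.84%) and 2136 of 28622 tested (7.46%). Among all probes outside the range, called or not, it stood in 332 of 3438 higher (9.66%) and 270 of 4330 lower (6.24%). Probes called higher were also poorer in G and C, with a median of 36.7% beside 43.3% for the called lower and for all tested. Across 5 classes of probe by G and C, the median difference went from 0.08 in the class with the least to -0.20 in that with the most. Lines other than HuR differed in the same way, from 0.11 to -0.09 for TIA1 less GFP and from 0.09 to -0.15 for TIAR less GFP. Of the HuR calls, 50 of the 65 called higher lay in the 2 classes with the least, which held 5854 and 6983 of the 28622 tested probes. The part of base composition in the ATTTA share was not tested. A run of 5 T, the other pattern searched, stood in 16.9% of the called higher, 14.7% of the called lower and 11.2% of all tested. The stretches of 30 bases that hold ATTTA in 3 probes of genes described here are shown with the pentamer in capitals, read 5′ to 3′ from the array design.
PTGS2: tgagatATTTAaggttgaatgtttgtcctt
BICD1: tatgagtttgaATTTAgtttgaaatctgga
CELF1: tgctgaaggggaaatATTTAaacttgcatt
These probes lie on hg19 at chr1:186641469-186641528, chr12:32531082-32531141 and chr11:47490178-47490237, in that order. A match is a letter pattern in the probe and no measured binding site.

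OR51E2, an olfactory receptor also expressed outside the nose, had -4.38 and -3.72 on the HuR arrays. None of the 6 others (0) measured it clearly over background, so it passed the filter through the HuR arrays alone, and it was at least 2.98-fold higher (adjusted p = 0.00175). PTPRZ1, a receptor tyrosine phosphatase of glia, had -1.60 and -1.42 against -5.86 to -3.99. GHR, the growth hormone receptor, had -1.31 and -1.11, with -2.99 and -3.33 in TIAR-expressing cells, the nearest line, and -5.31 to -4.38 in the others. That probe had an adjusted p of 0.0457. Its other tested probe, well above background on 1 of the 6 other arrays, was within the range (adjusted p = 0.389). GJA1, connexin 43, the main gap junction protein of many tissues, had 1.13 and 1.37. GFP-expressing cells were nearest at -0.72 and -0.31, and the TIA1 and TIAR arrays lay between -1.46 and -1.07. The difference for GJA1 was 2.27 (standard error 0.31, adjusted p = 0.0163). FAM133A was well above background on the HuR arrays alone, and HDX on these and 1 of the 6 others, and no fold is given for either.

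MAP2, a microtubule protein of dendrites, had -1.07 and -0.97 against -3.04 to -2.38, a difference of 1.58 (adjusted p = 0.013). BICD1, a dynein adaptor, had -2.85 and -2.78 against -5.21 to -4.15. STAU2, a double-stranded RNA-binding protein, was called by 1 probe with a difference of 1.80, while its other 2 probes were outside the range in the lower direction (-0.58 and -0.41). CELF1, which binds GU-rich RNA, was called by 1 of 2 probes, with 0.94 and 0.93 against -0.71 to -0.02. The other differed by 0.12, and the array design places it on chromosome 15 rather than 11. RUFY2 and XKR6 were each called by 1 of 3 probes, at 1.63 and 2.09, with the remaining probes within the range. ZNF876P, a zinc finger pseudogene, was called by a probe measured on all arrays, at 2.09. Its second probe was well above background on 0 of the 6 other arrays and was at least 2.39-fold higher. Of 22 genes called higher with over 1 tested probe, 13 had all of their probes above 0. For the lower direction this was 75 of 90 genes below 0.

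**Figure D2:**
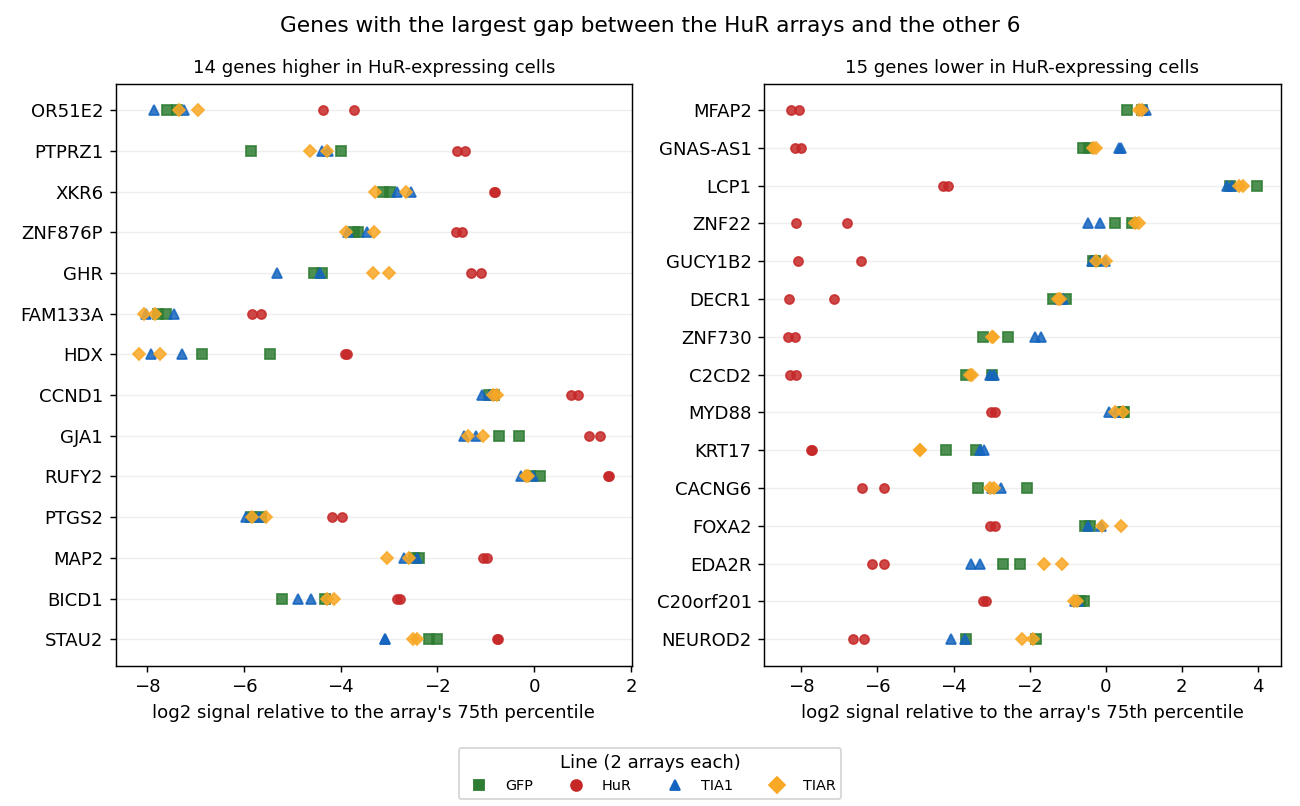
Log2 signal on each of the 8 arrays (horizontal axis, relative to the 75th percentile of the array) for 14 genes with the widest gaps in the higher direction and 15 in the lower. Marker and colour give the line. The HuR arrays (red circles) lie apart from the other 6 in every row because the rows were chosen for this. MFAP2, GNAS-AS1, LCP1 and ZNF22 are separated by over 6 log2 units.

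The sterol and fatty acid synthesis pathway makes cholesterol from acetyl-CoA and is switched on by SREBP factors when sterols run low. Of 32 tested members, 16 were outside the range in the higher direction, 50% beside 14.3% of all tested genes, and 1 in the lower, while 3 were called. Their median difference was 0.57 beside -0.06, and the excess over all genes lay between 0.42 and 0.70 across 5 scalings. INSIG1, the sterol-sensing anchor of the pathway, had 3.84 and 3.81 on the HuR arrays and 2.20 to 3.09 on the others, a difference of 1.29 (standard error 0.25, adjusted p = 0.0479). SQLE, squalene epoxidase, had 2.81 and 2.88 against 1.33 to 2.04, a difference of 1.10 (adjusted p = 0.0463). Both calls were lost with quantile normalization and without either HuR array. HMGCS1 and IDI1 were outside the range by differences of 1.03 and 1.02 with adjusted p-values of 0.111 and 0.1, and did not pass the test. The difference from HuR was smallest for the GFP line for INSIG1 and SQLE, at 0.89 and 0.88. GFP replicate 2 lay above both HuR arrays for 13 of the 32 members and GFP replicate 1 for 3. ACACA, on chromosome 17, was the member with the lowest difference (-0.32).

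**Figure D3:**
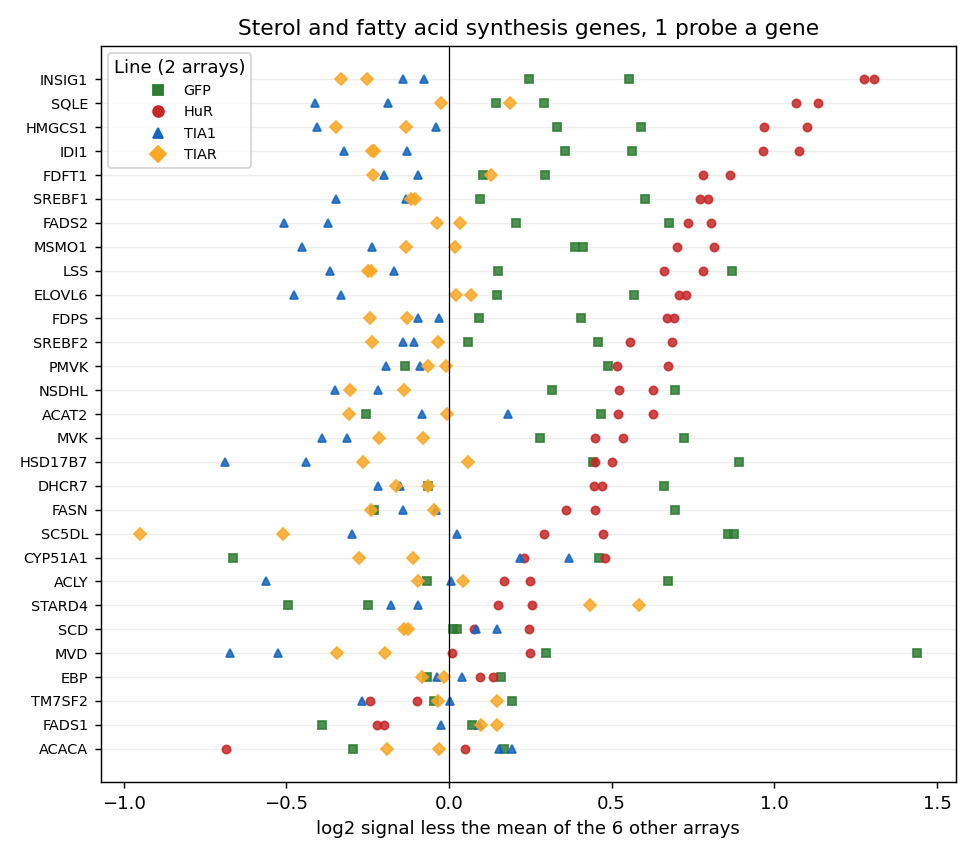
Log2 signal of each array less the mean of the 6 arrays of the other lines (horizontal axis) for 29 sterol and fatty acid synthesis genes, 1 probe a gene, ordered by the HuR difference. In the upper rows the HuR arrays (red circles) lie to the right of the other lines, with INSIG1 at a difference of 1.29 and ACACA at the bottom at -0.32.

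The lists of the ATF4 and ER stress response, which supplies amino acids and folding capacity under stress, and of glycolysis and hypoxia had the same lean, with 0 genes called by limma in either. At an unadjusted p under 0.05, 12 genes of the first were higher and 0 lower, and 10 of the second were higher and 2 lower, beside 9.31% higher and 12.9% lower among all tested genes. Across 5 scalings the excess over all genes stayed above 0, at 0.11 to 0.37 and 0.06 to 0.34. Of 41 genes of the first, 13 were outside the range higher and 1 lower, with a median difference of 0.28. SLC7A11, the cystine transporter, differed by 1.38 (adjusted p = 0.115), and STC2, a secreted glycoprotein, by 1.25 (adjusted p = 0.0525). Of 36 glycolysis and hypoxia genes, 14 were higher and 1 lower, with a median of 0.26. HK2, hexokinase 2, differed by 0.86 (adjusted p = 0.21), and PDK1, which holds pyruvate back from the mitochondria, by 0.65 (adjusted p = 0.137). Cytosolic ribosomal protein genes had a median of 0.01 over 80 genes, with 11 outside the range higher and 7 lower, and their excess over all genes changed sign with the scaling (-0.09 to 0.07). The RNA-binding proteins of AU- and U-rich elements had 7 of 26 higher (26.9%) and 2 lower (7.69%). Among all tested genes, 14.3% were outside the range higher and 18.2% lower, and 0.293% were called higher. CELF1 was called, though its brightest probe, at a difference of 0.12, was not.

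**Figure D4:**
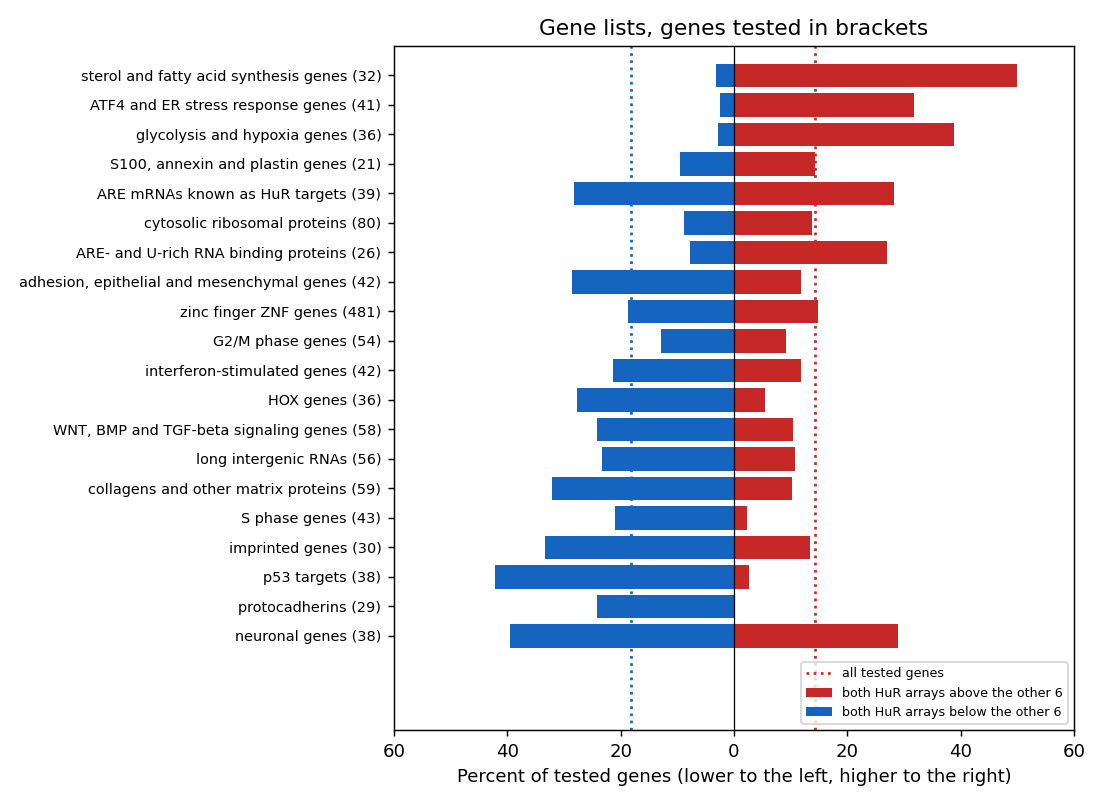
Percent of the tested genes of each list for which both HuR arrays lay above (red, to the right) or below (blue, to the left) the other 6 arrays, with the number tested in brackets. Dotted lines give the percent over all tested genes, 14.3 higher and 18.2 lower. Sterol synthesis reached 50 percent higher, and p53 targets 42.1 percent lower.

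In the lower direction, several genes that were bright in the other 3 lines were at background in HuR-expressing cells. MFAP2, a protein of elastic microfibrils, had 0.56 to 1.05 on the 6 other arrays and -8.27 and -8.06 on the HuR arrays. It was not well above background on either HuR array and was at least 121-fold lower (adjusted p = 3.14e-07). ZNF22, a zinc finger gene on chromosome 10 from 45500488 to 45500547, was at least 81.5-fold lower. GUCY1B2, whose probe was designed to a non-coding RNA record, was at least 56.2-fold lower. DECR1, the mitochondrial reductase for unsaturated fatty acids, was at least 28.2-fold lower. ZNF730 and C2CD2 were at least 11-fold and 6.66-fold lower. Each of these 6 genes was called against each of the other lines. LCP1, L-plastin, was still measured on the HuR arrays, at -4.29 and -4.15, where the others had 3.19 to 3.98, so its loss was 208-fold (difference -7.70, standard error 0.22, adjusted p = 4.92e-06). MYD88, the adaptor of Toll-like receptors, had -2.92 and -3.02 against 0.09 to 0.47, 9.87-fold lower (adjusted p = 9.14e-05).

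The RefSeq promoter windows (GRCh38.p14, 250 bases before to 50 after the start) of LCP1 and ZNF22 are shown with each CG in capitals. The loss of ZNF22 is a bound, so the 2 losses cannot be ranked. CG is its own reverse complement, so both strands were covered. The LCP1 window holds 2 CG, more than 11% of 35116 promoter windows, and the ZNF22 window holds 25, more than 68% of them, beside a median of 14.
LCP1, chr13:46182128-46182427, minus strand: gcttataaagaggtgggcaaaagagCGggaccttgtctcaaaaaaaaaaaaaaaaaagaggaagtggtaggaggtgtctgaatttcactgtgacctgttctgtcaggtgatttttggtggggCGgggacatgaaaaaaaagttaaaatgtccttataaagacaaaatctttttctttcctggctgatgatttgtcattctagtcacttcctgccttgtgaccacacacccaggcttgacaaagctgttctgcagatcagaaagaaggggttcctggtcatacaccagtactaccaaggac
ZNF22, chr10:45000673-45000972, plus strand: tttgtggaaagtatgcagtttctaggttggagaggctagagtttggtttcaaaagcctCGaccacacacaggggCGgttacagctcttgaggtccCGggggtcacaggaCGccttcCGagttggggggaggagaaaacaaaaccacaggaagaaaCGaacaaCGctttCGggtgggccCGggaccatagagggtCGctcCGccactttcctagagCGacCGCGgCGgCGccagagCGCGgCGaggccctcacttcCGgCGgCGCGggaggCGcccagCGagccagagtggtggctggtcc
The 2 windows differed in CG content. Of the other genes named as lost, the MFAP2 table entries hold 5 and 36 CG at different starts, and ZNF730 holds 16.

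Imprinted genes, which are read from 1 parental copy, gave 4 calls among 30 tested, all lower, beside 1.36% of all tested genes. On chromosome 20, where 2 of the 4 lie, 9.09% of tested genes were called lower. GNAS-AS1, the antisense RNA of the GNAS locus, had -8.01 and -8.16 on the HuR arrays and -0.59 to 0.39 on the others, and was at least 58.6-fold lower (adjusted p = 2.3e-05). Its second probe was at least 66.8-fold lower. H19 had -7.23 and -7.28 against -5.08 to -2.78 and was at least 4.04-fold lower (adjusted p = 0.0346), while its second probe was outside the range at -1.97 with an adjusted p of 0.374. L3MBTL1, a chromatin reader, had -3.82 and -3.63 against -1.74 to -0.60 (difference -2.66, adjusted p = 0.013). CDKN1C, a brake on cyclin-dependent kinases, had -2.60 and -2.49 against -1.19 to -0.68 (difference -1.60, adjusted p = 0.00736). The list had 10 genes outside the range lower and 4 higher, and GNAS-AS1 and L3MBTL1 lie on chromosome 20.

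Of 38 tested neuronal genes, 15 were outside the range lower and 11 higher, both above the shares over all tested genes. The called members moved in both directions. NEFL, the light neurofilament, had 3.0 and 3.05 against 1.25 to 2.19 and was higher together with MAP2. NEUROD2, a transcription factor of neurons, was at least 8.71-fold lower. CHGB, a granule protein of neuroendocrine cells, was well above background on 1 of the 2 HuR arrays and had -5.87 and -5.40 against -3.33 to -1.35 (difference -2.84, adjusted p = 0.0351), with GFP replicate 1 the brightest. STMN3 and CRMP1, a stathmin and a collapsin response mediator, differed by -1.88 and -1.83. DRD2, the D2 dopamine receptor, and SCG3, secretogranin III, complete the 6 called lower and were named after their values were seen. CHGB and STMN3 lie on chromosome 20 and NEUROD2 on chromosome 17 from 37760054 to 37760113.

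Targets of p53, the tumor suppressor that halts the cycle and triggers death after damage, were outside the range lower in 16 of 38 genes and higher in 1. The share lower was 42.1%, beside 18.2% lower and 14.3% higher among all tested genes. The list had a median difference of -0.39, and DDB2 and BAX were called, both lost with quantile normalization. Among all tested genes, 1.36% were called lower. The median relative to all genes lay between -0.33 and -0.23 across 5 scalings. DDB2, a DNA damage recognition protein, had -0.99 and -1.06 on the HuR arrays and 0.07 to 1.31 on the others (difference -1.97, adjusted p = 0.037). BAX, which opens the mitochondrial membrane in apoptosis, had 1.93 and 1.91 against 2.79 to 3.67 (difference -1.34, adjusted p = 0.0385). Against GFP alone BAX differed by -1.06 (adjusted p = 0.0554). The other tested probe of each gene was also outside the range lower but was not called. It differed by -1.35 for DDB2 (adjusted p = 0.116) and by -0.75 for BAX (adjusted p = 0.234). For DDB2, both GFP arrays lay between HuR and the TIA1 and TIAR arrays. EDA2R, the ectodysplasin A2 receptor, which is not on the list, was at least 11.7-fold lower, though the other arrays spanned -3.53 to -1.14. Of 43 S phase genes 9 were lower and 1 higher with 0 called by limma, and 7 were lower and 0 higher at an unadjusted p under 0.05. The share outside the range lower, 20.9%, was near the 18.2% of all tested genes. At an unadjusted p under 0.05 with limma, 12.9% of all tested genes were lower and 9.31% higher. Of 54 G2/M phase genes 7 were lower and 5 higher, with UBE2C, a mitotic ubiquitin-conjugating enzyme on chromosome 20, called.

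CLDN7 and CLDN3, tight junction proteins, differed by -2.12 and -1.48. KRT17, a basal keratin, was at least 4.11-fold lower, and WNT6, a secreted WNT ligand, had -2.88 and -3.29 against -1.80 to -0.66. FOXA2, an endoderm factor, had -2.91 and -3.04 against -0.55 to 0.42 (difference -2.76, adjusted p = 0.00373). HOXA6 was called by both of its probes (-1.74 and -1.66), and LHX1, a kidney patterning factor, differed by -1.40. FOXA2 lies on chromosome 20, where 53.6% of tested genes were outside the range lower. KRT17 and LHX1 lie between 25 and 40 Mb of chromosome 17, where this share was 48.0% by the brightest probe. Of 59 tested matrix genes 19 were lower and 6 higher, with MFAP2 the only one called, beside 1.36% of all tested genes. COL2A1, the cartilage collagen, was named after its values were seen: it had -5.67 and -5.74 on the HuR arrays, -2.75 and -2.89 with TIAR, and 0.25 to 1.93 with GFP and TIA1. Its adjusted p was 0.0861, so the widest gap of any named gene that was not called lay in a gene that also differed among the other lines. ANXA9, an annexin, differed by -1.65, PCDHA11 by -1.13, ZNF93 by -2.27, and CACNG6, a calcium channel subunit, was at least 8.09-fold lower. C20orf201, now LKAAEAR1 and also on chromosome 20, differed by -2.46, and its other probe by -0.40. Interferon-stimulated genes had 9 of 42 lower and 5 higher, with 0 called by limma and, at an unadjusted p under 0.05, 9 lower and 3 higher. Their shares outside the range, 21.4% lower and 11.9% higher, were near those of all tested genes, 18.2% and 14.3%. At that unadjusted p with limma, 12.9% of all tested genes were lower and 9.31% higher. RPS24 was called by 1 probe, designed to NM_001142285, at -1.38, while the other differed by -0.24.

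Chromosome 20 stood out in the lower direction. Of its 550 tested genes with a position, 295 (53.6%) were outside the range lower and 4 (0.727%) higher, 50 were called lower and 0 higher, and the median difference was -0.48. With each array's median over all genes set to 0, the chromosome 20 median was -0.33 and -0.32 on the HuR arrays and 0.09 to 0.14 on the 6 others, which did not overlap. The next highest shares in the lower direction were 33.2% on chromosome 21, 26.5% on chromosome 17, 23.9% on chromosome 22 and 22.9% on chromosome 16. On chromosome 5 the lean was opposite, with 22.3% higher and 11.1% lower. For comparison, the largest shift of any chromosome in another line was -0.22 for chromosome 13 in TIAR-expressing cells, and 0.18 for the same chromosome in GFP-expressing cells. The chromosome 20 shift, taken relative to all tested genes, was -0.42 and lay between -0.34 and -0.47 under every setting tried except without the filter on dim probes, where it was -0.10.

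The shift covered the whole of chromosome 20. In windows of 5 Mb, with each gene taken by its brightest probe, the share of genes outside the range lower was between 25.0% and 66.7%, and the median difference was below 0 in all 13 windows. Runs of neighbouring tested genes that were all outside the range lower included 10 genes from FLRT3 to C20orf72 (14304660 to 17971743), 10 from TOX2 to RIMS4 and 10 from UBE2C to PLTP. The longest run, 13 genes, lay on chromosome 17 from 37360880 to 37902440, from RPL19 through CDK12, NEUROD2 and ERBB2 to GRB7. Between 25 and 40 Mb of chromosome 17, bounds chosen after the values were seen, and again by the brightest probe, 118 of 246 genes were lower (48.0%) and 2 higher, with a median difference of -0.48. Over the rest of chromosome 17 these were 174 and 116 of 990 genes, with a median of -0.09. In all, 28 runs of 4 or more neighbours were lower and 8 higher. Without the genes of chromosome 20, 62 genes were called higher and 238 lower. Leaving out chromosome 20 and the stretch of chromosome 17, the sterol genes kept 16 higher among 31. The neuronal list then had 11 lower among 32 and the imprinted list 7 among 25. The p53 list had 0 tested members in these parts, so its 16 lower among 38 could not change. These arrays measured RNA, and the DNA of the lines was not analysed here.

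**Figure D5:**
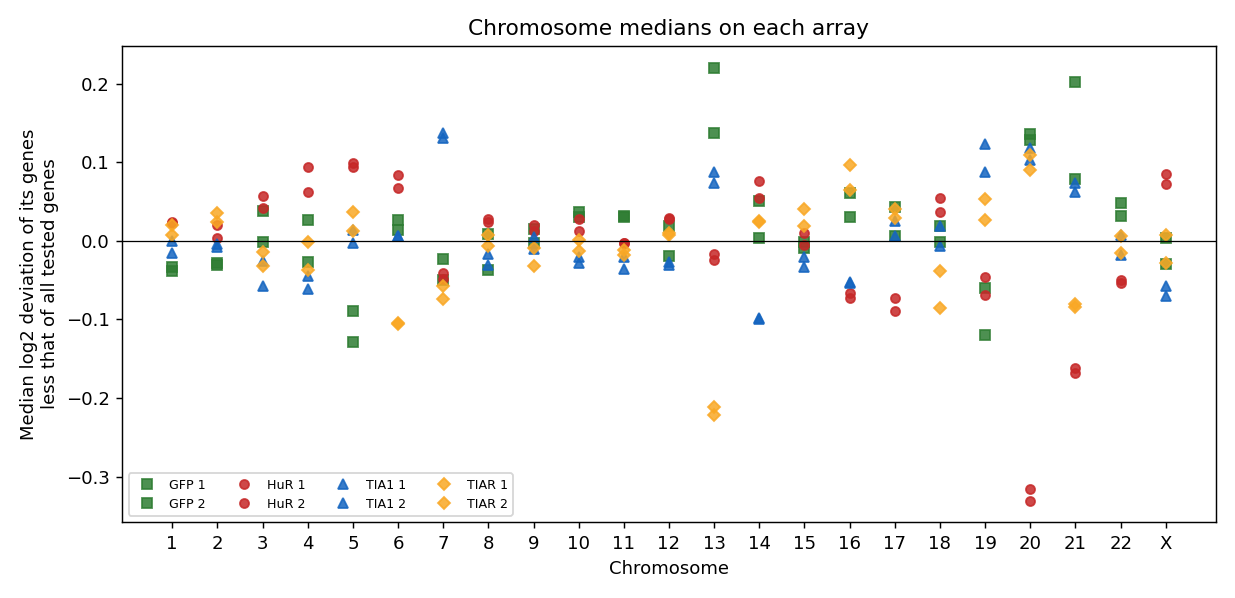
Median deviation of the genes of each chromosome on each array (vertical axis, log2 signal less the gene's mean over 8 arrays, with the array's median over all genes set to 0). Marker and colour give the line. On chromosome 20 the HuR arrays (red circles) lie at -0.33 and -0.32 and the other 6 between 0.09 and 0.14.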

How the data were processed

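Total RNA of 8 samples was hybridized to Agilent 1-colour arrays on 1 slide, scanned 1 time each. For each array the authors deposited a scanner file, whose processed signals are intensity values, background-subtracted and detrended by the software within each array and not scaled between arrays. The series table deposited by the authors holds log2 values after quantile normalization, with 1 distribution for the 2 TIAR arrays and a different one for the rest. It served as an alternative. Limma is named in the submitters' processing notes.

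Here, processed signals were put on the log2 scale and the array's 75th percentile was subtracted. Control spots and outliers were dropped, and replicate spots were averaged for each probe. Of 50599 probes, 28622 were well above background on both HuR arrays or on at least 5 of the 6 others and were tested. Of these, 1932 passed only through the HuR arrays and 487 only through the others. Limma 3.58.1 in R 4.3.3 (lmFit, eBayes) compared HuR with the 6 other arrays as 1 group, with Benjamini-Hochberg adjustment over all tested probes. A fit with 1 mean for each line gave the contrasts with single lines. Every adjusted p in the text is from limma. Counts are of gene names with at least 1 such probe, and list medians use the brightest tested probe of a gene. Where neither HuR array was well above background, or none of the others, a bound is given: the bright group's mean against, per array, the dim probe's own signal or the dimmest signal among probes well above background, whichever is higher. Named are ELAVL1, TIA1 and TIAL1, the 15 genes with the widest gap in each direction, and up to 4 called members of a list. Some genes under this rule are left out of the text and plots. The gap is between the HuR array nearest the others and the nearest other array. The members and lists were chosen with earlier results of these data known. XIST and Y-linked genes were left out. Of 30878 RefSeq-style probe names, 28174 matched the RefSeq table (GRCh38.p14), and probe coordinates (hg19) come from the array design. Further software was the R package data.table (version 1.17.8), pandas 2.3.3, and matplotlib 3.10.9 in Python 3.11.15. The fit was tested on simulated data in which the GFP, TIA1 and TIAR arrays shared the same mean for each probe. Differences among these lines, which the real arrays have, were not part of that test. The alternatives were quantile normalization, normexp correction (offset 50), the pair of them together, the authors' values, other filters and models, a fold of 1.5 and leaving out each array. Saturated spots numbered 0, and the number of arrays limits the precision.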

Additional observations from a re-analysis of the deposited data

Results flagged for a closer look

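Among the 6 arrays of the other lines, GFP replicate 1 stood apart in its share of probes well above background, 86.0%, where the gap to the next array was 0.839 of the whole range. It also stood apart in its mean local background of 83.2, with a gap of 0.911 of the range. Of the genes described, PTPRZ1 had GFP replicate 2 apart at a log2 signal of -5.86 (gap 0.657 of the range), MFAP2 had GFP replicate 1 apart at 0.56 (0.667) and CHGB had GFP replicate 1 apart at -1.35 (0.751). The critical value for 6 arrays is 0.625, and chance passes it in about 1 of 20 groups. The part of the GFP 1 background in these values was not tested.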

How the results depend on the processing

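The counts of genes moved with most choices. Genes outside the range lower (3842) numbered 5898 with normexp, 2496 with quantile normalization, 2541 with both, 2529 in the authors' values and 11973 without the filter on dim probes. Genes called higher (62) numbered 19 with quantile normalization, 22 with both, 16 in the authors' values, 8 without the filter, 294 with 1 mean for each line, 426 with array weights and 96 at a fold of 1.5. Genes called lower (288) numbered 43, 58, 50, 39, 794 and 1110 in the same order, without the last. Against GFP (970 genes), TIA1 (2327) and TIAR (1587) the counts were 400, 1227 and 739 with quantile normalization, 507, 1113 and 679 with both, 487, 1076 and 737 in the authors' values and 88, 1213 and 437 without the filter. Leaving out 1 array gave 13 to 225 called higher, 18 to 758 lower, 21 to 6007 against GFP, 384 to 3339 against TIA1 and 78 to 2513 against TIAR. Calls in the higher direction were 17.7% of all, and 30.6% with quantile normalization. With the replicate block, the counts were 31 higher, 133 lower and 515 against GFP. Replicate differences correlated between lines at -0.08 to 0.14, so no large replicate effect shared by the lines was seen. Whether the replicate numbers pair the arrays cannot be told from this. One TIAL1 probe that was not called reversed, to -0.025 with normexp. The chromosome shifts, the medians of lists across scalings and the counts without chromosome 20 were added after seeing the data. For the genes at 25 to 40 Mb of chromosome 17 the shift lay between -0.43 and -0.10. The cause of these moves was not tested. A lone array left in a line was assumed to vary like the other lines.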

Other observations

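Outside the range by at least 1 log2 unit, but not called by limma, were 5 named genes higher and 51 lower. The 5 with the widest gaps after COL2A1 were chosen after their values were seen. SEPT8, a septin, differed by 2.99 (adjusted p = 0.0534), and MAGEH1 by -3.65 (adjusted p = 0.0686), both well above background on all 8 arrays. AIF1, a macrophage and microglia calcium-binding protein, and the imprinted gene MEST were well above background on neither HuR array, and were at least 6.64-fold and 5.87-fold lower. C21orf88 was well above background on 1 of the HuR arrays.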
